A study of Mus musculus with 2 samples.

Results

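Ly6c2 monocytes with little C1q were 459 of the 2541 cell barcodes that passed the barcode filter, out of 4049 deposited, in fluid from the chest cavity of mice whose malignant effusion followed tumour cell injection. They were chosen by their own RNA. A barcode with at least 300 genes, at most 10% mitochondrial UMIs (counted molecules) and at least 2000 gene UMIs was a member if it held at least 3 UMIs of Ly6c2, Dmkn, Ear2 and Smox together and at most 5 of C1qa, C1qb and C1qc together. It also had to hold under 2% of its UMIs in the neutrophil genes S100a8, S100a9 and Retnlg, at most 3 UMIs of the dendritic cell genes H2-DMb2, H2-Oa, Cd209a and Flt3, at most 1 of Siglech, and none of the lymphocyte genes Cd3d, Cd3e, Cd3g, Cd79a and Cd79b. The class set against them, the C1q-positive barcodes, held at least 10 C1q UMIs and numbered 990, with no other condition.

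The series holds 2 libraries of 1 group, so every comparison lies between classes of barcodes of the same effusion. Per the labels, mice received 150000 LLC cells, a mouse lung carcinoma line, in 100 µl of saline into the pleural space, and live cells positive for CD45 and CD11b were sorted from the fluid taken on day 10. CD45 marks leukocytes and CD11b most myeloid cells. The strain, sex, age and number of the mice, and whether the libraries came from separate animals, are not stated in the labels, and no tumour-free sample was analysed here.

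Monocytes leave the bone marrow through the blood and enter inflamed tissue, where the Ly6C-high kind, which in mice carries the surface protein encoded by Ly6c2, uses the receptor CCR2. In tissue and body fluids they can become macrophages, and that change is usually accompanied by loss of Ly6c2 and gain of genes such as C1qa, C1qb and C1qc, which encode the chains of complement C1q, and Mrc1, a mannose receptor. C1q binds dying cells and promotes their uptake, known as efferocytosis, the process that the title of the study names beside TIMP1, an inhibitor of metalloproteinases.

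The promoters of a gene from each side of the rule are shown. They run from 250 bases before to 50 bases after the start in RefSeq, on the gene's own strand, and capitals mark matches to GAGGAAGT, letters bound by the myeloid factor PU.1, searched on both strands. Ly6c2 lies on the minus strand at chr15:75111922-75112221 and C1qc on the minus strand at chr4:136892865-136893164 of GRCm38.p6.
Ly6c2: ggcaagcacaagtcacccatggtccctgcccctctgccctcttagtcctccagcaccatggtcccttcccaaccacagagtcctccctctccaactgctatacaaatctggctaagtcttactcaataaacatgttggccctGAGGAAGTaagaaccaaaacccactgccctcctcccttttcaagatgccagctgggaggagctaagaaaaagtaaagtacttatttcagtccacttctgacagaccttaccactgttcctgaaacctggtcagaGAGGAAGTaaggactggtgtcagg
C1qc: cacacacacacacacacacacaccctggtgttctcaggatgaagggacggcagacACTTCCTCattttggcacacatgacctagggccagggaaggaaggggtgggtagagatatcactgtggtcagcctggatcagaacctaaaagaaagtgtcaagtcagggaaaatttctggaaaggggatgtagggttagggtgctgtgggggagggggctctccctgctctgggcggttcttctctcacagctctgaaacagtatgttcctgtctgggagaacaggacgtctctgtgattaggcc
The Ly6c2 window held 2 matches and the C1qc window 1, while 3.2% of 32851 promoters of the same length held any. These windows were shown for their matches, and those of Dmkn, Ear2, Smox and C1qb, also in the rule, and of Mgst1 and Rhov held none. A match is a description of the letters and not a bound site, and RefSeq lists 2 starts for Ly6c2, of which 1 is shown.

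Members made up 13.9% of the filtered barcodes of library 1 (155 of 1115, exact 95% interval 11.9% to 16.1%) and 21.3% of library 2 (304 of 1426, 19.2% to 23.5%), a mean of 17.6 ± 5.24% (SD, n = 2). C1q-positive barcodes numbered 372 and 618. Among filtered barcodes the share was higher in library 2 beyond counting error. The filter kept 1115 of 1141 deposited barcodes in library 1 and 1426 of 2908 in library 2. Deposited barcodes reached down to 1999 UMIs in library 1 and 500 in library 2. Members were 155 of the 1141 and 304 of the 2908, so over deposited barcodes the order of the libraries turns. The share also depends on depth, because a barcode with more UMIs reaches 3 UMIs of the set more easily. With every barcode thinned to 2000 UMIs, 5.11% and 10.9% met the rule. A median member held 8647 UMIs in library 1 and 10057 in library 2, and a median C1q-positive barcode 11710 and 16137.

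The 4 genes that admit a barcode contributed differently in the libraries. Ly6c2 gave 34% of the set's UMIs among members of library 1 and 64.5% in library 2. Dmkn, which encodes dermokine, gave 31.9% and 14.6%, Smox, spermine oxidase, gave 24.6% and 15.7%, and Ear2, an eosinophil-associated ribonuclease, gave 9.6% and 5.17%. Ly6c2 itself was found in 113 of 155 members of library 1 and in 279 of 304 of library 2, so 42 and 25 barcodes were members through the other genes alone. Ly6c2 stood at 348 CPM (the gene's share of all gene UMIs of the class, on the usual CPM scale; Poisson 95% interval 318 to 381) in members of library 1 and 741 CPM (712 to 771) in members of library 2, against 55 CPM (48.4 to 62.2) and 385 CPM (374 to 397) in C1q-positive barcodes. These levels, like those of the other genes in the rule, follow from the choice of members and carry no test. Reads of Ly6c2 and its close paralog Ly6c1, and of Ear2 and related ribonuclease genes, may be hard to tell apart in 3′ counting, and how such reads were assigned is not given in the sources used here.

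The low C1q of members follows from the rule, which allows at most 5 UMIs, and is given as a description. No C1q UMI was found in 86 of 155 members of library 1 (55.5%) and in 179 of 304 of library 2 (58.9%). C1qa was detected in 14.8% and 11.8% of members. It was detected in 20% and 15.4% of barcodes of a dendritic cell gate (at least 10 UMIs of the same 4 dendritic genes, 105 and 13 barcodes, median 11670 and 12716 UMIs) and in 12.9% and 10.4% of neutrophil barcodes (over the 2% limit, 85 and 259 barcodes, median 2222 and 2518 UMIs). The 3 C1q genes summed to 72.8 and 64.9 CPM in members, to 56.5 and 30.4 CPM in the dendritic gate and to 480 and 678 CPM in neutrophil barcodes. The dendritic gate also carried the members' limits on C1q, the neutrophil genes, Siglech and the lymphocyte genes. Its low C1q thus follows from the choice as well. Neutrophil barcodes carried no limit on C1q, so the 3 levels are not set against each other.

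Monocyte markers outside the rule were present throughout the class. The 9 genes of a Ly6C-high monocyte marker list that the rule did not use summed to 10502 and 14478 CPM in members, against 4845 and 9614 CPM in C1q-positive barcodes, and none of the list was at 0. Macrophage markers outside the rule summed to 4027 and 3666 CPM in members and 6955 and 4379 CPM in C1q-positive barcodes. Markers of resident pleural macrophages summed to 310 and 222 CPM in members and 1140 and 736 CPM in C1q-positive barcodes. Platelet markers summed to 1.43 and 1.22 CPM in members and 3.91 and 2.95 CPM in C1q-positive barcodes. Tumour and mesothelial lists were at 0 in members of both libraries. The B cell list was at 0 too, but 2 of its 4 genes, Cd79a and Cd79b, are barred by the rule.

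Natural killer cell genes marked a small exception. Ncr1, Klrb1c, Gzma and Nkg7 summed to 0.714 CPM in members of library 1 and 121 CPM in library 2, against 0 and 119 CPM in C1q-positive barcodes. In library 2, 2 members held 52 and 333 UMIs of these genes, and 11 members held any. Natural killer cells can also carry Ly6c2, so for these 2 barcodes the rule does not fix a monocyte identity. Neutrophil markers outside the rule summed to 206 and 199 CPM in members, most of it Lcn2, and 141 and 130 CPM in C1q-positive barcodes. The whole neutrophil list summed to 1634 and 1417 CPM in members and to 178290.0 and 139160.0 CPM in neutrophil barcodes. It holds the 3 neutrophil genes of the rule, which limit members and define neutrophil barcodes. This difference thus follows in part from the choice and carries no test.

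Values on both sides of the rule's limits were as follows. At exactly 3 UMIs of the set, 30 and 25 members had Chil3, a chitinase-like protein of monocytes and macrophages, at 2869.6 and 3173 CPM, and Mgst1, a microsomal glutathione transferase, at 52.7 and 90.3 CPM. Just outside, at 2 UMIs, 50 and 44 barcodes had Chil3 at 3573 and 4170.1 CPM and Mgst1 at 74.4 and 66.3 CPM. Mmp8 had 16.5 and 70.2 CPM at 3 UMIs and 68 and 30.4 CPM at 2, and Il1r2 221 and 451 CPM at 3 and 489 and 238 CPM at 2. For these 2 genes and Mgst1 the side with the higher level thus differed by library, while Chil3 was higher just outside in both. At the other limit, few barcodes lay near the cut. Only 3 and 12 members held 4 or 5 C1q UMIs, and 5 and 7 barcodes of the same set held 6 or 7. The comparison class overlaps with the members in the set itself, since 85 of 372 C1q-positive barcodes in library 1 (22.8%) and 449 of 618 in library 2 (72.7%) also held at least 3 UMIs of it.

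Members were then compared with C1q-positive barcodes in all genes, with UMIs summed per class and library. Of 9319 genes tested outside the rule, 845 passed an adjusted p of 0.05 in edgeR's quasi-likelihood test with the library as a block, which is 9.07% of them. Of these, 429 were higher in members (4.6%) and 416 lower (4.46%), and 832 had the same direction in both libraries. The ratio was larger in library 1 for 649 of those 832. The median log2 fold change of all tested genes was -0.01. Counts of the gene lists below are to be read beside 4.6% higher and 4.46% lower over all genes. Since both classes were cut from the same barcodes by RNA content, the test does not ask whether the classes exist. Its spread was pooled over all genes, so a gene whose 2 libraries disagree can still pass. Ccl5 passed with log2 ratios of 2.02 in library 1 and -3.36 in library 2.

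The number of genes called depended strongly on the setting. The fit left 1 residual degree of freedom and edgeR pooled the spread over all genes without limit, which makes p-values of abundant genes very small. DESeq2 called 128 of the 9319 genes (89 higher, 39 lower), all of them among the 845. Without the library block 1 gene was called, with 439 at an unadjusted p under 0.05. With the members' exclusions applied to C1q-positive barcodes as well, 229 genes were called. For this reason many of the genes below are given with their level in each library or with the number of 16 alternative settings in which they also passed.

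**Figure D1:**
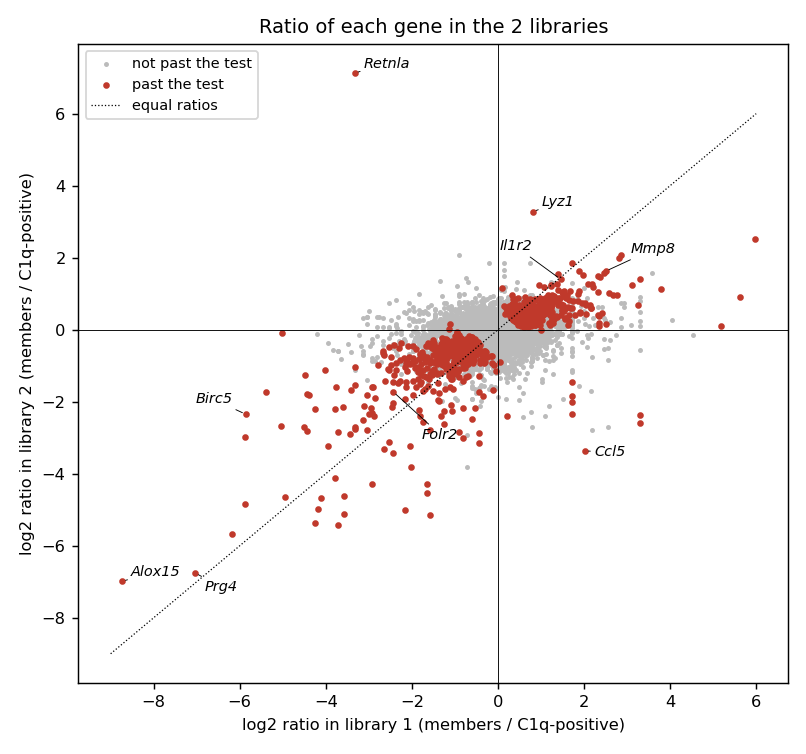
Log2 ratio of members over C1q-positive barcodes in library 1 (x axis) and library 2 (y axis) for 9319 genes, with the 845 past the test in red and the dotted line at equal ratios. Most red points have the same sign in both libraries, and those on the right lie mostly below the line.

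Genes of Ly6C-high monocytes were higher in members. Of 15 genes of that list, all tested, 11 were higher and none lower, with a median log2 fold change of 0.66 against -0.01 over all genes. One of the 11, Mgst1, was proposed as a marker of this class from these data, and its value is a description. DESeq2 called 8 of the 15, the fit with the members' exclusions 5, the fit that adds a class of dendritic barcodes 2 and the fit without the block none.

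Chil3 stood at 4609 and 3942 CPM in members, against 1637 and 1922 CPM in C1q-positive barcodes. Its log2 fold change was 1.31 ± 0.12 (SE, n = 2 libraries; edgeR adjusted p = 2.05e-23, from 1.01e-26 to 0.709 over the alternatives), and it passed in 14 of 16. Plac8, a small cysteine-rich protein gene of monocytes, stood at 1541 and 4917 CPM in members and at 493 and 3675 CPM in C1q-positive barcodes, with a fold change of 1.06 ± 0.13 on the log2 scale. Both groups of Plac8 values thus differed more between libraries than between classes. Thbs1, thrombospondin 1, had 1966 and 928 CPM in members and 619 and 611 CPM in C1q-positive barcodes, and passed in 12 of 16 alternatives, as Plac8 did. The haptoglobin gene Hp (log2 fold change 1.06 ± 0.12), Vcan, which encodes the matrix proteoglycan versican (0.87 ± 0.12), and Ccr2 (0.49 ± 0.12) were also higher. F13a1, which encodes a chain of coagulation factor XIII, had 842 and 918 CPM in members and 781 and 850 CPM in C1q-positive barcodes, and did not pass (edgeR adjusted p = 0.53). Mgst1 stood at 171 and 212 CPM in members and 65 and 99.4 CPM in C1q-positive barcodes, and Rhov, an atypical small GTPase gene likewise proposed as a marker, at 34.3 and 26.6 CPM in members and 5.65 and 13.2 CPM in C1q-positive barcodes.

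Of 11 tested genes of Ly6C-low, patrolling monocytes, 3 were higher and none lower (median 0.16), where 4.6% of all genes were higher. DESeq2 and the fit with the members' exclusions called none. They were Itgal, the alpha chain of the integrin LFA-1 (0.96 ± 0.20), Ace, angiotensin-converting enzyme (1.66 ± 0.50), and Treml4, a receptor of that monocyte kind (0.91 ± 0.30). Ace rested on 30 UMIs in members, and each passed in no more than 8 of 16 alternatives.

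**Figure D2:**
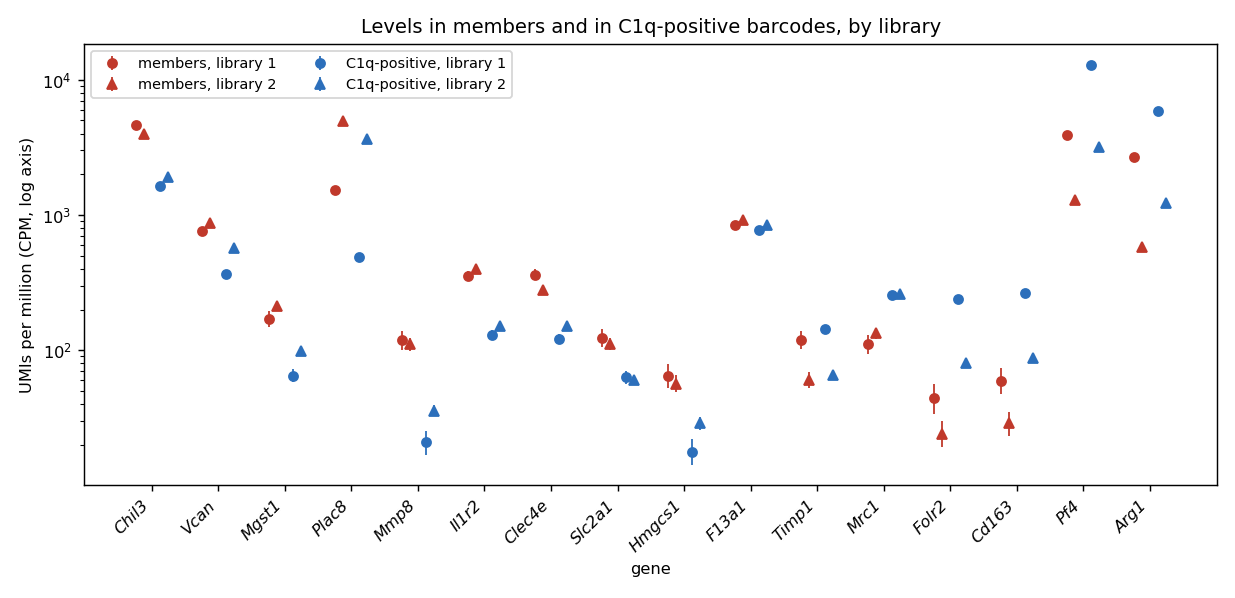
Levels of 16 genes that the rule did not use, in CPM on a log axis, in members (red) and C1q-positive barcodes (blue), with a circle for library 1, a triangle for library 2 and bars for the exact 95% Poisson interval. For Mmp8, members sit at 119 and 111 CPM, above 20.9 and 35.8 CPM in C1q-positive barcodes, while the Timp1 points of each library lie close together.

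Inflammatory genes, trafficking receptors and pattern receptors were higher in members. Of 14 tested genes of interleukin 1 and inflammatory cytokines, 10 were higher and none lower (median 0.54), where 4.6% of all genes were higher. Of 16 chemoattractant receptors and trafficking genes, 10 were higher and none lower (median 0.52). Of 13 Fc receptors and C-type lectins, 5 were higher and none lower (median 0.26). DESeq2 called 2, 6 and 3 of these lists in the same order.

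Il1r2, the decoy receptor that binds interleukin 1 without signalling, stood at 356 (interval 326 to 389) and 402 CPM (381 to 425) in members, against 130 (120 to 141) and 152 CPM (145 to 160) in C1q-positive barcodes. Members lay above C1q-positive barcodes in both libraries, and the log2 fold change was 1.47 ± 0.12 (edgeR adjusted p = 8.16e-30, from 7.65e-31 to 0.466 over the alternatives), past the test in 15 of 16. Il1b, the cytokine that this receptor captures, had 186 and 354 CPM in members and 41.3 and 234 CPM in C1q-positive barcodes (1.27 ± 0.13, 12 of 16). Il1rn, the antagonist of the signalling receptor, had 23.6 and 29.4 CPM in members and 8.26 and 14.4 CPM in C1q-positive barcodes (1.23 ± 0.23, 14 of 16). Agonist, antagonist and decoy were thus all higher in members than in C1q-positive barcodes. The dendritic gate, with 13 barcodes in library 2, held Il1r2 and Il1b more often than members. After thinning, Il1r2 was found in 41% and 53.8% of its barcodes, against 31.6% and 35.2% of members. Il1b was found in 29.5% and 46.2% of its barcodes, against 18.1% and 31.3% of members. Tlr2, a receptor of bacterial lipoproteins, was higher by 0.73 ± 0.17.

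Among lectins, Clec4e, which encodes Mincle, a receptor of dead cell and mycobacterial ligands, had 363 and 279 CPM in members and 121 and 151 CPM in C1q-positive barcodes (1.25 ± 0.12, 15 of 16). Its neighbour Clec4d rose by 0.92 ± 0.12 and Clec5a, a lectin of the myeloid surface, by 1.29 ± 0.16, each in 15 of 16. Among trafficking genes, Fpr2, a formyl peptide receptor (0.98 ± 0.14), Cd44, the hyaluronan receptor (0.89 ± 0.12), and the chemokine receptor gene Ccr1 (0.70 ± 0.12) were higher. Cx3cr1, a receptor gene typical of Ly6C-low monocytes, had 5 and 7.04 CPM in members and 1.96 and 3.96 CPM in C1q-positive barcodes and did not pass.

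The 10 largest increases included genes known from neutrophils. Mmp8, neutrophil collagenase, had 119 (interval 101 to 138) and 111 CPM (99.4 to 123) in members, against 20.9 (16.9 to 25.5) and 35.8 CPM (32.5 to 39.4) in C1q-positive barcodes. Its log2 fold change was 2.01 ± 0.15 (edgeR adjusted p = 7.7e-39, from 7.07e-40 to 0.605 over the alternatives, 15 of 16). It was detected in 62 of 155 and 136 of 304 members, so it was widely spread. After thinning, 17.4% and 19.1% of members had an Mmp8 UMI, against 6.18% and 6.47% of C1q-positive barcodes. Cd177, a surface protein gene of neutrophils, had 77.8 and 73.2 CPM in members and 15.4 and 35.5 CPM in C1q-positive barcodes (1.56 ± 0.16, 15 of 16). Neutrophil barcodes had Mmp8 at 567 and 281 CPM and Il1r2 at 2635 and 2083 CPM, while Cxcr2, a defining neutrophil receptor at 1147 and 1520.2 CPM there, had 6.42 and 18.1 CPM in members and 17.4 and 18.3 CPM in C1q-positive barcodes. The 7 neutrophil markers outside the rule, as given above, summed to 206 and 199 CPM in members and 141 and 130 CPM in C1q-positive barcodes, so Cxcr2 and the sum did not go the same way. Most of the members' sum was Lcn2, with 180 and 147 CPM in members without a C1q UMI and 165 and 128 CPM in the other members. Ngp, Camp and Ltf had at most 2 UMIs each in either part of a library's members. The part of neutrophil RNA in these increases was not tested.

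Other large increases included Ramp1, a receptor-modifying membrane protein gene (1.66 ± 0.23, 14 of 16), Rpl3l (1.90 ± 0.33), Msantd3 (1.72 ± 0.37) and Hsd17b7 (1.60 ± 0.35), each of the last 3 in 9 to 12 of 16. A pair of the largest increases rested on single barcodes. For Gzma, a granzyme of cytotoxic lymphocytes, 282 of 317 member UMIs lay in 1 barcode of library 2, none in library 1, and after thinning its log2 fold change was -1.26. For Lyz1, a lysozyme gene, 1 barcode held 39 of 43 UMIs in library 1 and another 182 of 209 in library 2, so its fold change of 2.32 ± 0.20 describes those barcodes. Retnla, named here after its values were seen, had 172 of 173 member UMIs in 1 barcode of library 2 and lies alone at the top left of the plot of ratios.

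Sterol synthesis genes and lipid carriers moved apart. Of 15 tested genes of lipid handling and sterol synthesis, 5 were higher and 5 lower (median 0.09), beside 4.6% and 4.46% of all genes. The higher genes included Hmgcs1 and Sqle, enzymes of cholesterol synthesis, and Insig1, which holds the sterol sensor in the endoplasmic reticulum. The 5 lower were the fatty acid binding protein genes Fabp4 and Fabp5, the cholesterol exporter Abca1, the apolipoprotein gene Apoe and the scavenger receptor Cd36. All 5 higher genes stayed called with the members' exclusions applied to C1q-positive barcodes, and DESeq2 called 3 higher and none lower.

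Hmgcs1 stood at 65 (interval 52.3 to 79.8) and 56.6 CPM (48.8 to 65.4) in members, against 17.8 (14.2 to 22.1) and 28.8 CPM (25.8 to 32) in C1q-positive barcodes. The log2 fold change was 1.36 ± 0.17, past the test in 15 of 16 alternatives. Sqle, squalene epoxidase, had 51.4 and 34.9 CPM in members and 15.4 and 20.3 CPM in C1q-positive barcodes (1.21 ± 0.19, 15 of 16). Outside the list and named after their values were seen, Msmo1 (1.38 ± 0.15) and Idi1 (1.43 ± 0.17), later enzymes of the same pathway, were higher in the main test.

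The promoters of 2 of these enzymes are shown because the genes moved together and the factor SREBP is known to drive them in mammals. Capitals mark matches to TCACNCCAC, a sterol regulatory element, and to CCAAT, the box bound by NF-Y, on either strand. Hmgcs1 lies on the plus strand at chr13:119690101-119690400 and Idi1 on the plus strand at chr13:8885356-8885655 of GRCm38.p6.
Hmgcs1: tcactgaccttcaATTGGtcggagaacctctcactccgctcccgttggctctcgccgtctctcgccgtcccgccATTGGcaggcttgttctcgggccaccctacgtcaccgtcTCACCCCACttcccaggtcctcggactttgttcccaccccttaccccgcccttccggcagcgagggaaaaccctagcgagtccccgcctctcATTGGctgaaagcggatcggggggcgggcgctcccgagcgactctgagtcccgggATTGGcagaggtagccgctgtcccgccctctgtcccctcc
Idi1: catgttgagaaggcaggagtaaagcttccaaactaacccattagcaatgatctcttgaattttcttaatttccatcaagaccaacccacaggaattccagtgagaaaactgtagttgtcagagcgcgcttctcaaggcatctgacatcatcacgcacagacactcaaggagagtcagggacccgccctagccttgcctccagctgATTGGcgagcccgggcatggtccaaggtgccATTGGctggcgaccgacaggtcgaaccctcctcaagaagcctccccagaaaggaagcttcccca
The Hmgcs1 window held 1 match to the sterol element, which 1.24% of all 32851 promoters hold, and 4 to CCAAT, which 37.4% hold at least once. The Idi1 window held 2 matches to CCAAT and none to the sterol element. Of 3 other windows searched, Insig1 held 1 match to CCAAT and Msmo1 and Hsd17b7 3 each, with none to the sterol element, and no match says only that these letters are not in this window.

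Glycolysis and hypoxia genes were higher in part. Of 22 tested, 10 were higher and none lower (median 0.38), where 4.6% of all genes were higher. Slc2a1, the glucose transporter GLUT1, had 124 and 111 CPM in members and 63 and 60.6 CPM in C1q-positive barcodes (0.96 ± 0.14, 15 of 16). Pfkp, a phosphofructokinase (1.02 ± 0.14, 14 of 16), the lactate exporter gene Slc16a3 (0.66 ± 0.12) and Hif1a, the oxygen-regulated transcription factor (0.65 ± 0.12), were higher. The abundant enzymes Gapdh, Ldha and Aldoa had log2 fold changes of -0.01, 0.15 and 0.14 and did not pass. DESeq2 called 4 of the 22.

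Glutathione and redox enzymes gave 4 higher and 2 lower of 15 tested (median 0.01), beside 4.6% and 4.46% of all genes. DESeq2 called 2 higher and none lower. Gsr, glutathione reductase, had 899 and 896 CPM in members and 438 and 562 CPM in C1q-positive barcodes (0.89 ± 0.12, 15 of 16). From another list, Slc7a11, the cystine importer that feeds glutathione synthesis, had 133 and 141 CPM in members and 57.6 and 73.9 CPM in C1q-positive barcodes (1.09 ± 0.13, 15 of 16). Hmox1, heme oxygenase 1, was lower (-0.43 ± 0.12), with 1325 and 466 CPM in members and 1933 and 616 CPM in C1q-positive barcodes. Glutathione reductase was thus higher and heme oxygenase lower in both libraries.

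Macrophage genes were lower in members. Of 17 tested outside the rule, 12 were lower and 1 higher, with a median of -0.56, beside 4.46% and 4.6% of all genes. DESeq2 called 5 lower and none higher. Folr2, folate receptor beta, had 44.3 and 24.2 CPM in members and 241 and 80.3 CPM in C1q-positive barcodes (-2.03 ± 0.16, 15 of 16). Cd163, the haptoglobin-hemoglobin receptor, had 59.3 and 28.8 CPM in members and 264 and 87 CPM in C1q-positive barcodes (-1.83 ± 0.15). Mrc1 had 111 and 133 CPM in members and 255 and 260 CPM in C1q-positive barcodes (-1.03 ± 0.13). Csf1r, the receptor for macrophage growth factor, and Maf had log2 fold changes of -0.13 and -0.17 and did not pass.

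The strongest decreases were genes of resident pleural macrophages, which the C1q-positive class also holds. Alox15, a lipoxygenase of those cells, had 0 and 1.53 CPM in members and 152 and 214 CPM in C1q-positive barcodes. Prg4, which encodes lubricin, had 0.714 and 1.22 CPM in members and 140 and 149 CPM in C1q-positive barcodes. Cd5l, a secreted macrophage protein gene, counted 2 UMIs in members and 634 in C1q-positive barcodes, a ratio of 89.9-fold with a 95% counting interval of 24.8 to 744. Ltbp1, a binding protein of latent TGF-beta, had no UMI in members and 105 in C1q-positive barcodes, at least 9.92-fold higher there against a floor of 3 counts over the group. In each library, 21 C1q-positive barcodes held more than 2 UMIs of Alox15 and Prg4. Without them 750 genes were called, and 10 macrophage genes were lower.

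**Figure D3:**
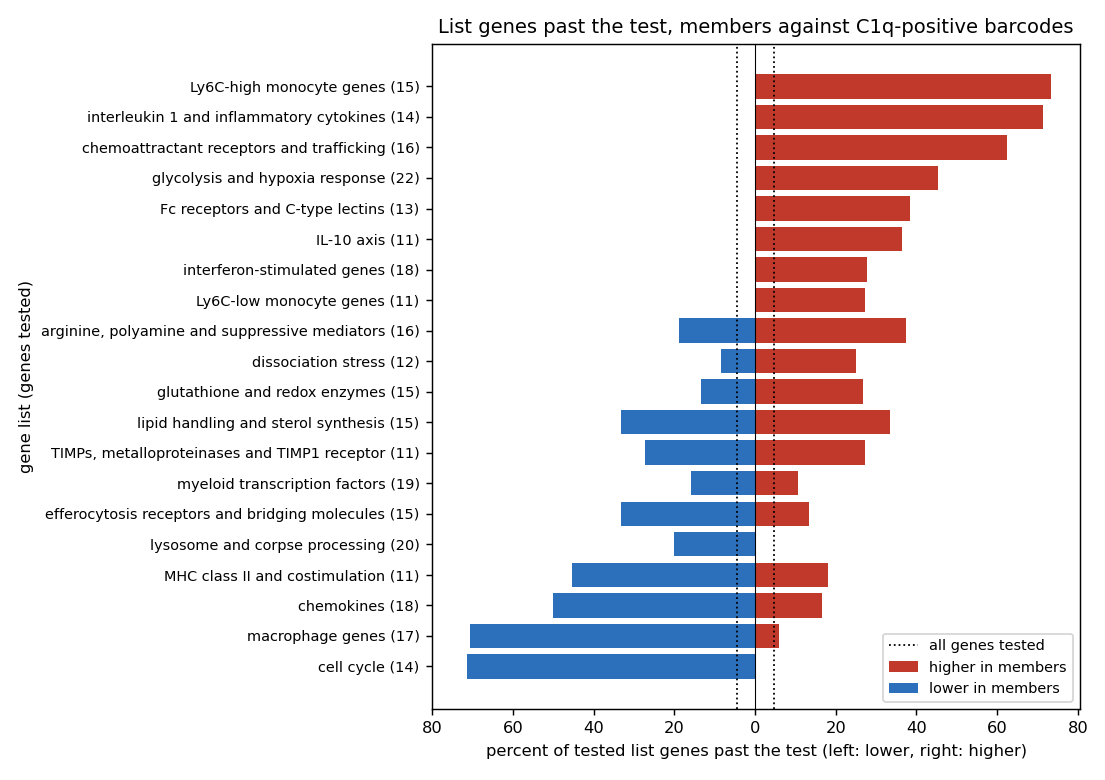
Percent of the tested genes of each of 20 lists that were higher (red, right) or lower (blue, left) in members than in C1q-positive barcodes, with the number tested in brackets and dotted lines at 4.6% and 4.46%, the shares over all genes. Ly6C-high, interleukin 1 and trafficking lists lie to the right, and macrophage and cell cycle lists to the left.

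Chemokine genes were higher or lower by gene. Of 18 tested, 3 were higher and 9 lower (median -0.45), beside 4.6% and 4.46% of all genes. DESeq2 called 1 higher and 3 lower. Cxcl10, an interferon-induced chemokine, had 5.71 and 75.6 CPM in members and 1.3 and 31.2 CPM in C1q-positive barcodes (1.38 ± 0.21, 14 of 16), and Cxcl2, which attracts neutrophils, was higher by 0.65 ± 0.12. In library 2, Cxcl10 was found in a similar share of both classes, 39 of 304 members and 80 of 618 C1q-positive barcodes. There, 1 member held 58 of the 247 member UMIs of Cxcl10, and library 1 had 8 in all its members. Pf4, platelet factor 4, had 3936 and 1291 CPM in members and 12969.6 and 3165 CPM in C1q-positive barcodes (-1.46 ± 0.13, 14 of 16). Ccl7 and Ccl12, ligands of CCR2, were lower (-1.05 ± 0.12 and -1.17 ± 0.13), while Ccl2, another ligand, had 1748 and 1443 CPM in members and 1360.4 and 1455 CPM in C1q-positive barcodes and did not pass. Ccl5 was lower overall (-3.02 ± 0.20), with 7.14 and 33.1 CPM in members and 1.74 and 342 CPM in C1q-positive barcodes. The lower level lay in library 2, and in library 1 the log2 ratio was 2.02. The rule allows members no UMI of Cd3d, Cd3e or Cd3g, while C1q-positive barcodes had no such condition. With the members' exclusions applied to both classes the Ccl5 log2 fold change was 0.53 and did not pass.

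Genes of efferocytosis and TIMP1, which the title names, gave a mixed picture. Timp1 itself stood at 119 (interval 102 to 139) and 60.6 CPM (52.5 to 69.7) in members, against 143 (133 to 155) and 65.3 CPM (60.7 to 70) in C1q-positive barcodes. Its log2 fold change was -0.14 ± 0.14 (edgeR adjusted p = 0.638, from 0.271 to 1 over the alternatives), and it passed in none of them. In the dendritic gate Timp1 had 281 and 85 CPM, and in neutrophil barcodes 31.7 and 9.81 CPM. Timp2 was lower (-2.31 ± 0.20, 14 of 16), with 7.14 and 14.1 CPM in members and 102 and 42.5 CPM in C1q-positive barcodes. Cd63, which encodes a TIMP1 receptor, was lower too (-1.10 ± 0.14, 14 of 16), and Mmp19, a metalloproteinase, was higher (1.09 ± 0.14, 15 of 16). Of 11 tested genes of that list, 3 were higher and 3 lower, beside 4.6% and 4.46% of all genes. DESeq2 called 3 higher and 1 lower.

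Of 15 tested efferocytosis receptors and bridging molecules, 2 were higher and 5 lower (median 0.05), beside 4.6% and 4.46% of all genes. DESeq2 called none. Mertk, the receptor tyrosine kinase for dead cells, had 5 (interval 2.01 to 10.3) and 20.5 CPM (15.9 to 26) in members and 28.5 (23.8 to 33.8) and 27.5 CPM (24.6 to 30.6) in C1q-positive barcodes. The log2 ratio was -2.42 in library 1 and -0.41 in library 2, and the fitted change of -0.89 ± 0.23 passed in 7 of 16. Axl, its relative, had 2.14 and 4.29 CPM in members and 2.17 and 4.47 CPM in C1q-positive barcodes and did not pass. Havcr2, which encodes TIM-3, was higher (1.20 ± 0.22, 12 of 16), and Cd36 lower (-0.82 ± 0.20, 11 of 16). Timd4, which encodes TIM-4, was lower (-1.74 ± 0.44), on 4 and 9 UMIs in members, and its log2 ratio in library 1 alone was 3.30. Of 20 lysosome and corpse processing genes, 4 were lower and none higher (median -0.09, with 4.46% of all genes lower), and DESeq2 called 2. They were Grn, progranulin (-0.60 ± 0.12), Lgmn, legumain (-0.59 ± 0.12), the acid lipase gene Lipa (-0.55 ± 0.15) and Ctsb, cathepsin B (-0.54 ± 0.12).

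Of 11 tested genes of the interleukin 10 axis, 4 were higher and none lower (median 0.34), beside 4.6% and 4.46% of all genes. DESeq2 called none. Il10 had 1.43 and 10.7 CPM in members and 0.435 and 10.2 CPM in C1q-positive barcodes and did not pass. Il10ra, its ligand-binding receptor chain, had 36.4 and 51.4 CPM in members and 15.2 and 42 CPM in C1q-positive barcodes (0.65 ± 0.18, 8 of 16). Socs3, an inhibitor of cytokine signalling (0.45 ± 0.13), Bcl3 (0.65 ± 0.15) and Nfil3 (0.57 ± 0.14) were the others.

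Arginine metabolism divided by enzyme. Arg1, the cytosolic arginase of alternatively activated macrophages, stood at 2666 and 581 CPM in members and 5869.8 and 1235 CPM in C1q-positive barcodes (-1.07 ± 0.12, 15 of 16). Arg2, the mitochondrial arginase, had 12.1 and 15.3 CPM in members and 5.22 and 6.58 CPM in C1q-positive barcodes (1.26 ± 0.30, 11 of 16). The polyamine enzymes Odc1 and Srm were lower (-0.66 ± 0.19 and -0.67 ± 0.17). Of the 16 tested genes of the list, 6 were higher and 3 lower, beside 4.6% and 4.46% of all genes. DESeq2 called 1 in each direction. Irg1 was among the 6, but 25 of its 27 UMIs in members of library 1 lay in 1 barcode.

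Genes of MHC class II and costimulation went both ways. Of 11 tested, 2 were higher and 5 lower (median -0.39), beside 4.6% and 4.46% of all genes, and DESeq2 called none. The rule limits H2-DMb2 and H2-Oa in members, while C1q-positive barcodes had no such condition. With the members' exclusions applied to both classes, 1 gene of the list was higher and none lower, so none of the 5 stayed called. H2-Eb1 had 691 and 744 CPM in members and 719 and 1634 CPM in C1q-positive barcodes, so the difference (-0.57 ± 0.12, 9 of 16) lay in library 2. Of the costimulatory genes, Cd86 (0.59 ± 0.14) and Cd80 (1.12 ± 0.30) were higher, and Cd40 was lower (-0.66 ± 0.23, 3 of 16). Of 18 interferon-stimulated genes, 5 were higher and none lower (median 0.38; 2 in DESeq2), with Ifitm6 (0.91 ± 0.12) and Gbp2 (0.75 ± 0.14) in 14 of 16 alternatives each.

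Of 19 myeloid transcription factors tested, 2 were higher and 3 lower (median 0.04), beside 4.6% and 4.46% of all genes. DESeq2 and the fit that adds dendritic barcodes called none. Id2, an inhibitor of helix-loop-helix factors, was higher (0.97 ± 0.12), and Klf2 (-1.13 ± 0.13) and Klf4 (-0.86 ± 0.16) were lower. Spi1, which encodes PU.1, had 699 and 757 CPM in members and 646 in each library of C1q-positive barcodes and did not pass. Of 14 cell cycle genes tested, 10 were lower and none higher (median -2.12). DESeq2 called 2 of them lower, the fit with the members' exclusions 2 and the fit that adds dendritic barcodes 4. The largest decreases of this list rested on few C1q-positive barcodes. Ube2c was found in 11 of 372 and 27 of 618, Ccnb2 in 11 and 32, Birc5 in 14 and 37, and Cdk1 in 9 and 28. For Ube2c, 1 barcode held 34 of the 53 UMIs of C1q-positive barcodes in library 1. Stmn1, a microtubule regulator of dividing cells, had 2.86 and 7.35 CPM in members and 43.9 and 34.7 CPM in C1q-positive barcodes. Of 12 genes induced by tissue dissociation, 3 were higher and 1 lower (median 0.30), DESeq2 called none, and their part in the other results was not tested.

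Among barcodes with at least 3 UMIs of the Ly6c2 set, levels were then followed over bands of C1q, as a description, since C1q chose the members. In library 1, Mgst1 had 169 CPM at no C1q UMI, 172 at 1 to 5, 149 at 6 to 9, 94.3 at 10 to 49 and 40.2 CPM at 50 or more. In library 2 it had 228, 191, 196, 119 and 117 CPM over the same bands. Mmp8 went the same way, with 126 and 117 CPM at no C1q UMI and 44.5 and 40.1 CPM at 50 or more. Hmgcs1 was highest at 6 to 9 C1q UMIs, 128 and 97.9 CPM, but that band held 5 and 18 barcodes. Arg1 stood at 2311 and 364 CPM at no C1q UMI and at 6352 and 1241 CPM at 50 or more, and Timp1 at 122 and 57.3 CPM against 142 and 66.5 CPM.

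**Figure D4:**
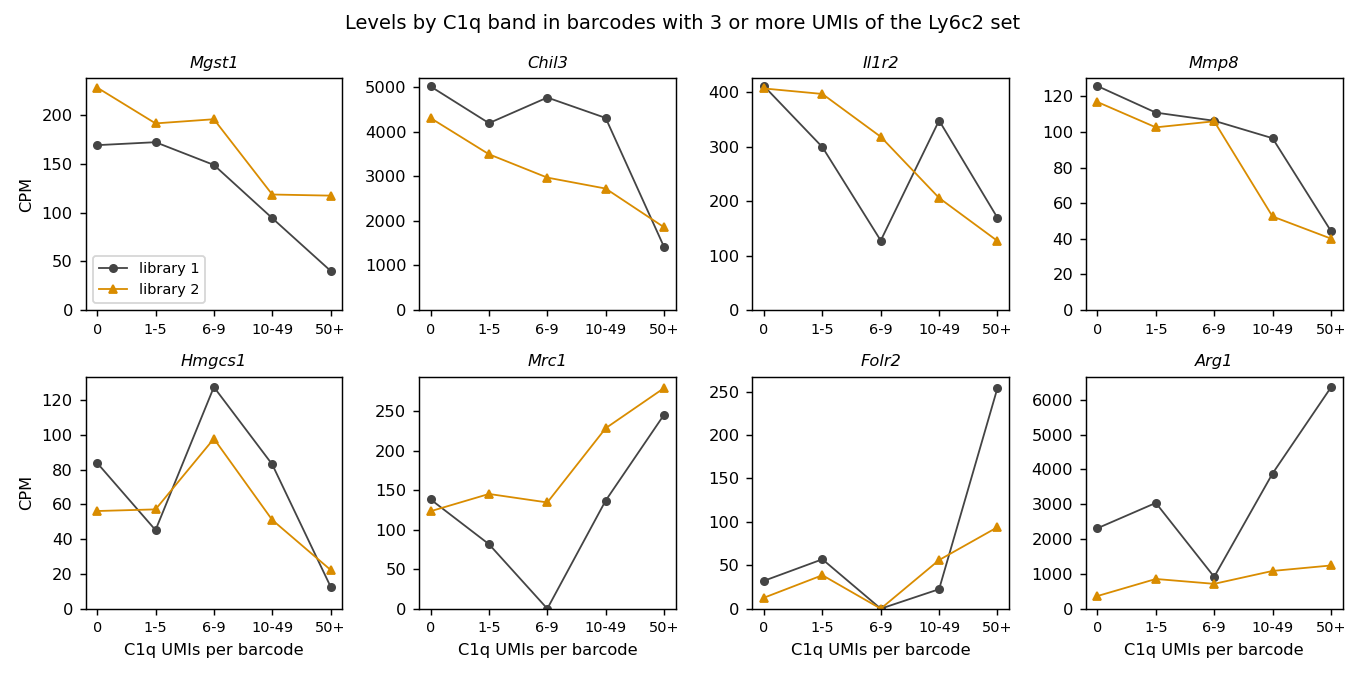
Levels in CPM of 8 genes by the number of C1q UMIs per barcode (x axis, 5 bands) in barcodes with at least 3 UMIs of the Ly6c2 set, for library 1 (grey) and library 2 (orange); the 2 left bands are the members. Mgst1 and Mmp8 are lowest and Mrc1, Folr2 and Arg1 highest at 50 or more C1q UMIs, and the middle band of 5 and 18 barcodes is uneven.

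Members also varied among themselves. Those without a Ly6c2 UMI, 42 and 25 barcodes, were set beside those with it, as a description and outside the genes of the rule. In library 1 those without Ly6c2 had H2-Eb1 at 1735 CPM, against 313 CPM in members with Ly6c2. In library 2 they had 173 CPM, against 782 CPM. In library 2 they also had Il1r2 at 1136 CPM, against 354 CPM, and Cxcr2 at 69.2 CPM, against 14.7 CPM in members with Ly6c2. With members limited to those with Ly6c2, 405 genes were called.

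The libraries differed within the members. Gbp2 stood at 44.3 CPM in library 1 and 1203 CPM in library 2, Plac8 at 1541 and 4917 CPM, Arg1 at 2666 and 581 CPM, and Pf4 at 3936 and 1291 CPM. Of the members of library 1, 115 held Y-linked RNA and none Xist, while in library 2, 250 held Xist alone, 29 Y-linked RNA alone and 5 both. Library and sex of the cells thus largely coincide and cannot be told apart, and 1 library per kind allows no test. Across the libraries, 4 barcode sequences recurred.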

How the data were processed

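UMI counts per gene and cell barcode are the values the authors deposited, unscaled; the submitters' processing notes name Cell Ranger 3.0.1 and mm10, while annotation release and use of strand were not stated. Library 2 also holds 2 antibody tags that the labels do not explain. Deposited totals were 11543829 and 20322996 gene UMIs. The members, their rule and the gene lists were chosen with earlier results of these data known. No doublet caller was run.

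UMIs were summed per class and library and tested with edgeR 4.0.16 in R 4.3.3 (quasi-likelihood test, TMM scaling, filterByExpr, library as a block, Benjamini-Hochberg adjustment over all genes tested); the 20 genes of the rule were kept out of the calls. Both classes come from the same 2 libraries, which pairs them; their deviations correlated at 0.697 across genes. The SE of a log2 fold change is its size over the root of the moderated F. In the main fit, p-values and SEs rest on a spread between 2 libraries pooled over all genes, not on each gene's own. That spread may be technical. Shares carry exact binomial and levels exact Poisson 95% intervals, of counting error only; a class without a UMI was set to a floor of 3 counts. Log2 ratios of single libraries had a small count added. The edgeR test was checked on simulated counts with the same spread for every gene. That check does not cover genes whose 2 libraries disagree. DESeq2 1.42.0, other scalings, filters, classes and limits were tried as alternatives. Named genes were those of the rule, the 10 largest changes per direction with the same sign in both libraries and at least 100 UMIs, up to 4 called genes per list, and Timp1, Mertk, Il10, Il10ra and Axl; others are given as list members. The dendritic gate held under 20 barcodes in library 2 and was not tested. Irg1 is the files' symbol for Acod1. Promoters come from RefSeq. Of the list genes, 3 were not analysed here, and some genes that the naming rule or a list holds are counted but not reported by name.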

Additional observations from a re-analysis of the deposited data

Results flagged for a closer look

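In library 2, 39 of 304 members held at least as many counts of the antibody tag BC3 as of BC2, a signal outside the gene counts that library 1 does not have; 265 lay on the BC2 side. On the BC3 side were also 22 of 618 C1q-positive barcodes, 8 of 13 in the dendritic gate and 237 of 259 neutrophil barcodes. BC3-side members had Gzma at 945 CPM, against 0.341 CPM in BC2-side members, but 282 of the 317 Gzma UMIs of all members lay in 1 barcode. BC3-side members had Cxcr2 at 71.8 CPM, against 11.9 CPM in BC2-side members. With BC2-side barcodes only, 516 genes were called.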

How the results depend on the processing

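Genes called moved by over 1.5 times in 10 of 16 alternatives. Without the replicate block, which the shared libraries call for, 1 gene was called (0 higher, 1 lower; 439 at an unadjusted p under 0.05). DESeq2 called 128 (89 higher, 39 lower), the members' exclusions in both classes 229 (111, 118), a limit of 2 C1q UMIs 358 (184, 174), thinned barcodes 520 (290, 230), the BC2 side 516 (263, 253) and barcodes up to 15000 UMIs 538 (311, 227). Chosen after seeing the data, C1q-positive barcodes with the Ly6c2 set gave 405 (223, 182), members with Ly6c2 405 (209, 196) and a fit of 3 classes 109 (45, 64). The cause was not tested. The other 6 gave 620 to 876; library totals without TMM turned the split to 342 higher and 490 lower, and no low-count filter to 345 and 444.

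The mean share of members was 7.99% after thinning and 12% with 6 UMIs of the set, and the libraries alone gave 13.9% and 21.3%. Of 96 named genes 93 were called, 54 of them in at least 12 alternatives. The direction turned for Gzma thinned (-1.26), Ccl5 with the members' exclusions (0.53), and between single libraries for Ccl5 (-3.36 to 2.02), Timd4 (-2.37 to 3.30) and Axl (-0.023 to 0.13), Il10 thinned (-0.11) and against C1q-positive barcodes with the set (-0.0011), and Axl without the block (0.039), with RLE factors (0.0071), at 2 C1q UMIs (0.090), without resident macrophages (0.0074) and with 3 classes (0.012). Members against the dendritic gate were not fitted, nor were their alternatives, because library 2 held 13 such barcodes; leaving out a library left no test of genes.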
